A study of Gallus gallus and Columba livia with 18 samples.

Results

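Gene expression ranks were compared between the retinas of chicken (Gallus gallus) and pigeon (Columba livia) embryos at the stage here called E8, embryonic days 8 to 8.5. The genes compared are the 6590 that both deposited tables list once under the same name and that have a pigeon gene model of at least 300 bases, out of 6842 names listed once in both. Fertilized eggs of both species were incubated at 37 °C, whole retinas were dissected, and each library came from 1 to 6 pooled retinas, with 3 libraries for each species and stage. Messenger RNA libraries were sequenced, and the authors' tables give FPKM, sequenced fragments scaled to transcript length and to the mapped total, as 1 pooled value per gene and stage. Neither table has a value per library, so no SD, no interval and no test between replicates stands beside any value. The same genes at E3 (days 3 to 3.5) and E5 (days 5 to 5.5), from other libraries of both species, are used for comparison, and the labels name no treatment and no mutation. That equal days are equal stages of development in the 2 species is nowhere stated in the labels.

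In the early vertebrate retina, dividing progenitors give rise to ganglion cells, horizontal cells, cones, amacrine cells, and later to bipolar cells and Müller glia. The bHLH factor ATOH7 marks progenitors that are leaving the cell cycle, among them those that become ganglion cells, and is not a marker of that fate alone. Chicks hatch with open eyes and working sight, while pigeons hatch with closed eyes and a retina that is still maturing. In any cell, transcripts of the ribosome and of basic metabolism are among the most abundant, so the genes of cell fate and of neurons form a small part of the RNA measured. In a whole retina, fewer cells of a type and less RNA per cell cannot be told apart.

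FPKM cannot be set side by side between the tables, because the authors normalised them separately and the gene models differ. The sum of FPKM over the 6590 genes was 604461 in pigeon and 242501 in chicken at E8. Each gene was therefore given its place among the 6590 genes within its own table, with place 1 for the highest FPKM. Its percentile rank runs from 100 at the top to 0 at the bottom. Genes outside the 6590 hold no place, and EEF1A1, ACTB, GAPDH and VIM are among them. Over all rows the sum of FPKM at E8 was 1.49e+06 in pigeon and 676583 in chicken, so places and shared lists do not describe the whole tables. The rank gap of a gene is its pigeon percentile rank minus its chicken percentile rank, in points. FPKM values below show a gene's own course over the stages within a species, not its level in one species against the other. A shared name was taken as the same gene, and whether it is the same ortholog was not tested.

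A value of 0 needs care in these tables. At E8, 534 genes were listed at 0 in pigeon, 417 in chicken, and 200 of them in both. In the chicken table, all 1470 rows on 21 sequences outside the numbered and sex chromosomes were listed at 0 at every stage, and 128 of the 6590 genes lie there. Of the 35 genes that were at 0 in chicken and in the highest 25% of pigeon, 33 lie on those sequences. Among them are ATP5B and ATP5C1, subunits of the mitochondrial ATP synthase, at places 66 and 97 in pigeon. PA2G4, a growth regulator of ribosome production, was at place 232 in pigeon, and CDCA8, a subunit of the chromosomal passenger complex of mitosis, at place 241. LBR, the lamin B receptor of the nuclear envelope, lies on chicken chromosome 3 and was listed at 214, 0 and 0 FPKM in chicken at E3, E5 and E8, while pigeon had 261, 268 and 553. Such a 0 is not read as absence here. In the other direction, C19ORF12 was listed at 0 in pigeon and at place 947 in chicken, where POP4 shares its listed span. The pigeon zeros next in chicken rank were MYOM3, a sarcomere protein (3299), CCDC27 (3314), EPDR1 (3758) and SGCD, a sarcoglycan (3928).

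Gaps were counted among the 5434 genes, 82.5% of the 6590, that were above 0 in both tables and reached 1 FPKM in at least 1 of them. Left out were the genes at 0 and a further 405 that stayed under 1 FPKM in both.

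The order of the genes was much alike in both birds at E8. Spearman's rank correlation between pigeon and chicken was 0.864 over the 6590 genes and 0.898 without the 128 genes on the chicken sequences listed at 0. This is a description across genes, which share libraries, gene models and depth within each table and are not replicates. Among the 5434 compared genes the median size of the gap was 6.86 points, and 64.0% of genes had a gap under 10 points. Genes with a mean percentile rank of 75 or more had a median gap size of 3.69 points, against 10.4 for those between 50 and 75 and 7.61 for those between 25 and 50. At E3 and E5 the same 6590 genes gave rank correlations of 0.870 and 0.868 between species. Within a species, E3 against E8 gave 0.939 in pigeon and 0.960 in chicken, both higher than between the birds, though the stages of 1 species share their gene models.

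**Figure D1:**
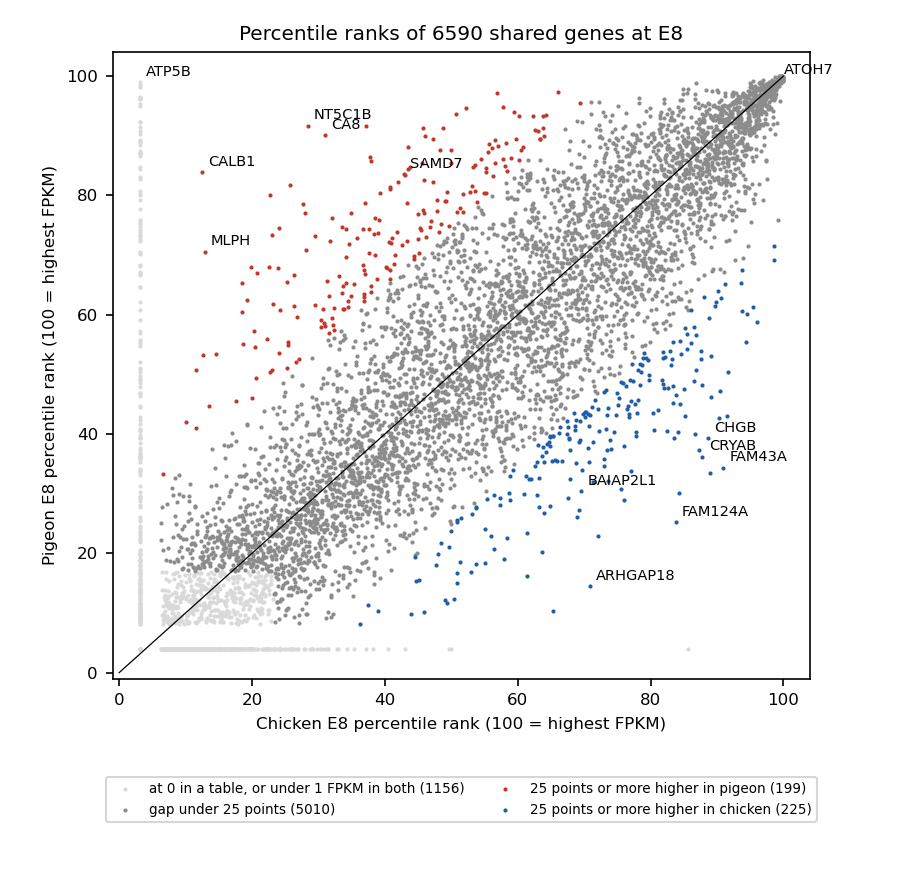
Percentile rank at E8 in chicken (horizontal axis) against pigeon (vertical axis) for 6590 genes, 1 point each, with the line of equal rank. Most points lie near the line, 199 of the 5434 genes whose gaps were counted lie at least 25 points above it and 225 at least 25 points below, and the column at the left edge and the row at the bottom are genes listed at 0 in one table.

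Among the ranked genes, the most abundant shared transcripts were those of the ribosome. Of the 100 highest of the 6590 genes in each table, 72 were in both, which is 72% of each list. At E3, 69 of these 72 were also in both lists. All 37 ribosomal protein genes of the 2 ribosomal lists that are among the 6590 genes stood within the 100 highest of both species. RPS12, a protein of the small subunit, was first in pigeon and at place 27 in chicken. RPL27A (10 in pigeon and 4 in chicken) and RPL23 (11 and 3) were near the top in both. RPSA, the laminin receptor protein of the small subunit, held places 19 and 5.

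Of the 20 genes highest in both birds, 3 were not ribosomal. YBX1, an RNA-binding protein of the cold shock domain family, had the best joint position, place 8 in pigeon and 7 in chicken. Its FPKM at E3, E5 and E8 was 5995, 6348 and 6564 in pigeon and 2355, 2521 and 2585 in chicken. CKB, the brain form of creatine kinase that buffers ATP, was the highest of the ranked genes in chicken and at place 15 in pigeon. STMN1, the microtubule-destabilising protein stathmin, was at place 2 in chicken and 28 in pigeon, and its FPKM went through 2255, 2502 and 3892 in chicken and 2047, 2008 and 4283 in pigeon over the 3 stages. In both birds the E8 value of STMN1 was the highest of the 3.

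The 35 shared genes outside the ribosome also held translation and RNA factors, mitochondrial ATP synthase subunits, chaperones and 1 retinal transcription factor. ATOH7 stood at place 44 in pigeon and 55 in chicken, the sole member of the proneural list among the 72. Its FPKM was 37.5, 133 and 1827 in pigeon and 22.4, 117 and 555 in chicken, and it was 1 of the 3 shared genes that were not in both upper lists at E3, with RBMX and GNB1. At E3 its chicken rank was the higher by 6.97 points, and at E8 the gap was 0.167 points. The pigeon model of ATOH7 (Cli_R013085) spans positions 414244 to 414696 of scaffold645. The chicken row (XLOC_019146) has a listed span on chromosome 6 from 11588940 to 11643284, which 4 rows named MYPN share. The translation factors EIF4G2 (47 in pigeon, 40 in chicken), EEF1B2, EIF5 and EIF3I and the ATP synthase genes ATP5G3 (45 and 57), ATP5H, ATP5O and ATP5A1 were in both lists. So were the chaperones HSP90AA1 (37 and 35), HSPA8 and CCT5, the glycolytic enzyme PKM2 (67 and 46) and the carbonic anhydrase CA2 (52 and 9). The members of this group beyond those the naming rule takes in were named after their values were seen.

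Each bird had 28 genes among its highest 100 that were not among the highest 100 of the other, and most were near misses. Of the 28 in pigeon, 16 were within the highest 200 of chicken, and of the 28 in chicken, 17 were within the highest 200 of pigeon. CCND1, cyclin D1 of the G1 phase, was at place 81 in pigeon and 242 in chicken, with FPKM of 226, 286 and 739.7 in pigeon and 89.2, 81.1 and 128 in chicken over the stages. PABPC1, the poly(A)-binding protein, was at 83 and 873, and MYL4, an embryonic myosin light chain, at 79 and 216. In the other direction the glucose transporter SLC2A1 was at 71 in chicken and 195 in pigeon, and the glycolytic enzymes PGK1 (81 and 219) and GPI (91 and 226) were likewise within 100 in chicken alone. The farthest apart on the chicken side were TCF3, a bHLH partner factor (96 in chicken and 2033 in pigeon), ATXN3, a deubiquitinase (98 and 1878), and MBD4, a DNA repair glycosylase (51 and 1588). These last 3 were picked out after their values were seen, and the chicken span of each is shared with at least 1 other row.

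At a gap of at least 25 points, 199 of 5434 genes (3.66%) ranked higher in pigeon at E8 and 225 (4.14%) ranked higher in chicken. A gap of at least 50 points was found for 10 genes in pigeon's favour and 8 in chicken's. The genes nearest the limit were SLC2A3 (25.01 points) and SQSTM1 (24.9) on the pigeon side, and SCAP (−25.01) and FADD (−24.98) on the chicken side. The count depends on which genes are ranked. With ranks taken again among genes of at least 5 FPKM in both tables, 361 and 339 genes passed 25 points, and with log2 values scaled by their SD in place of ranks, 83 and 98 passed 1 SD.

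Among the 15 genes that ranked highest in pigeon relative to chicken, gaps ran from 46.8 to 71.4 points. The genes were of mixed kinds, among them the calcium-binding CALB1 and the neuronal globin NGB. CALB1, the calcium-buffering protein calbindin, counted here with the amacrine and horizontal cell genes, had the largest gap. Its FPKM in pigeon was 1.44, 7.71 and 98.3 at E3, E5 and E8, and in chicken 0.0819, 0.111 and 0.101, so the value was higher at each later stage in pigeon and near 0 at all 3 in chicken. It stood at place 1062 in pigeon and 5766 in chicken, a gap of 71.4 points, against 7.76 at E3 and 19.3 at E5. The pigeon model (Cli_R000168, 705 bases) lies on scaffold1 from 5542124 to 5558144, and the chicken row (XLOC_009747) on chromosome 2 from 129152181 to 129170055.

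CA8, a relative of the carbonic anhydrases that lacks their activity and is known from cerebellar Purkinje cells, went through 5.30, 9.33 and 147 FPKM in pigeon and 3.53, 4.24 and 3.20 in chicken. Its pigeon value at E8 stands apart, with places 652 and 4550 and a gap of 59.2 points after gaps of −4.78 at E3 and −0.895 at E5. The pigeon model (Cli_R004414) lies on scaffold195 from 2820637 to 2860609 and the chicken row (XLOC_009687) on chromosome 2 from 116610007 to 116676063. MBP, the main basic protein of myelin in mature tissue, had pigeon values of 1.94, 6.87 and 44.2 and chicken values of 0.0720, 0.123 and 0.413. Its gap was 46.8 points at E8 and 9.96 at E3. MLPH, melanophilin, which links pigment granules to the myosin motor, was at 3.71, 5.28 and 54.04 FPKM in pigeon and 2.20, 2.72 and 0.112 in chicken. The E8 value was the highest of the 3 in pigeon and the lowest in chicken, and the gap was 57.7 points at E8.

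For the other 11 of the 15 the gap was past 25 points at E3 and at E5 as well. NT5C1B, a cytosolic nucleotidase, was at 115, 97.9 and 166 FPKM in pigeon and 2.65, 3.503 and 2.31 in chicken over the stages, with gaps of 57.3, 53.1 and 63.3 points. RBM24, an RNA-binding splicing regulator known from muscle, was at 64.7, 87.4 and 165 in pigeon and 4.26, 6.15 and 5.59 in chicken. NGB, neuroglobin, the oxygen-binding globin of neurons, was at 36.4, 39.5 and 75.3 in pigeon and 0.586, 0.652 and 2.08 in chicken, and stood at places 1419 and 4766. EPGN, a ligand of the EGF receptor family, had a gap of 55.97 points and KLHL2, an actin-binding adaptor of a ubiquitin ligase, of 57.3. In chicken a further row at the KLHL2 span carries the joined names of KLHL2 and SC4MOL, so the chicken value of KLHL2 is uncertain. PTPMT1, a mitochondrial phosphatase of cardiolipin synthesis (50.6 points), LRRC56 (50.3), AGTRAP, a partner of the angiotensin receptor (49.2), ZNRF1, a ubiquitin ligase (48.6), C1ORF114 (48.1) and AIG1, a lipid hydrolase (47.9), complete the group. PTPMT1 was listed at 0, 0.581 and 1.15 FPKM in chicken, so its gap of 73.6 points at E3 rests on a 0. Its chicken row spans only positions 24945543 to 24945899 of chromosome 5, against 583005 to 585125 of pigeon scaffold34. The pigeon models of 12 of the 15 are under 1000 bases, as are 10 of the 15 on the chicken side and 1819 of all 5434. The chicken span of 4 (KLHL2, NGB, ZNRF1 and C1ORF114) is shared with other rows.

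Among the 15 genes that ranked highest in chicken relative to pigeon, gaps ran from 45.2 to 58.6 points, and they included secretory, transport and mitochondrial genes. FAM124A, whose role is little known, had the largest, 58.6 points, at place 1068 in chicken and 4926 in pigeon. Its FPKM was 3.90, 10.99 and 41.1 in chicken and 2.27, 4.19 and 3.94 in pigeon, so the chicken value was higher at each later stage and the pigeon value was low at all 3. The chicken row (XLOC_001030) lies on chromosome 1 from 174317303 to 174330156 and the pigeon model (Cli_R003748) on scaffold17 from 15828563 to 15843427. CHGB, chromogranin B of secretory granules, was at 6.33, 10.8 and 55.2 in chicken and 22.6, 21.2 and 15.3 in pigeon. At E3 it ranked 9.55 points higher in pigeon, and at E8 49.3 points higher in chicken. It lies on chicken chromosome 3 from 17997942 to 18010833 (XLOC_013626) and on pigeon scaffold135 from 976597 to 982294 (Cli_R002373).

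RDH5, the 11-cis retinol dehydrogenase of the visual cycle known from pigment epithelium, was at 2.54, 4.64 and 19.9 in chicken and 0, 0 and 0.173 in pigeon. Its chicken value was highest at E8, while its pigeon value rests on 1.04 smallest steps, the smallest nonzero value among pigeon models of nearly the same length. WFDC1, a secreted protein with a protease-inhibitor domain, was at 55.5, 65.6 and 29.8 in chicken and 64.4, 60.7 and 6.30 in pigeon, lower at E8 than before in both and by more in pigeon. The gap of FAM43A was 56.6 points, that of EYA3, a transcriptional partner of homeodomain factors in the eye, 47.6, and that of ARHGAP18, a GTPase-activating protein, 56.4 on 6.24 pigeon steps.

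Of the 15, 12 were also past 25 points at E3 and 12 at E5. CRYAB, alpha B crystallin, a small heat shock protein of lens and glia, was at 51.6, 45.8 and 52.1 FPKM in chicken and 1.12, 0.622 and 12.5 in pigeon, with gaps of 69.9, 71.2 and 51.6 points. SLC38A1, a glutamine transporter, was at 67.2, 57.4 and 56.7 in chicken and 9.31, 9.74 and 9.75 in pigeon, with gaps of 57.6, 55.4 and 55.5 points. Both genes thus ranked higher in chicken at every stage. NIPSNAP3A (54.2 points), MRPS34 of the mitochondrial ribosome (50.1), QPCT, the glutaminyl cyclase of neuropeptides (49.2), SLC25A39, a mitochondrial carrier (48.6), ISCA2 of iron-sulfur assembly (46.7) and LRRC20 (45.2) made up the rest. The LRRC20 value in pigeon rests on 2.12 steps, and its chicken span is shared with 11 rows.

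**Figure D2:**
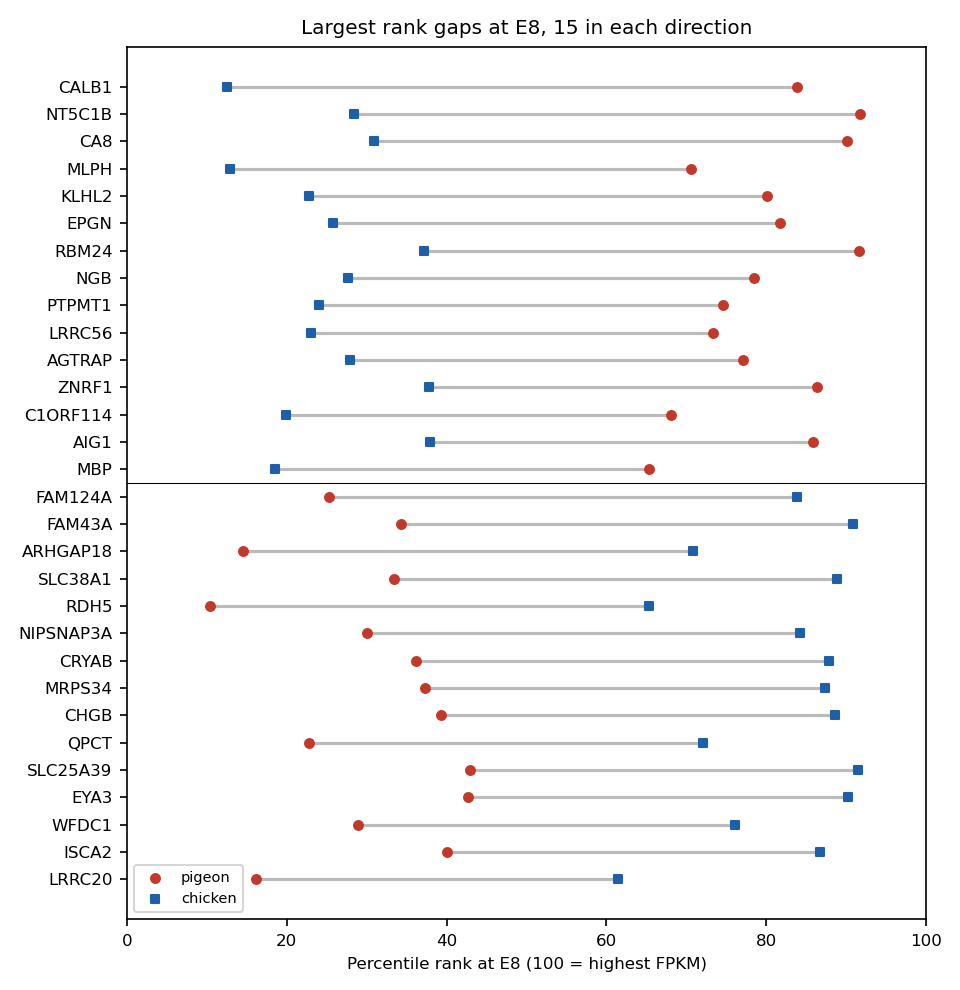
Percentile rank at E8 of the 15 genes with the largest gap in each direction, with a circle for pigeon and a square for chicken joined by a line. CALB1 shows the longest line, 71.4 points, and FAM124A the longest in the other direction, 58.6 points.

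Many of the gaps at E8 were already there at E3. Of the 199 genes past 25 points in pigeon's favour at E8, 94 (47.2%) were past it at E3 and 186 had a gap of the same sign. Over all 5434 genes, 161 (2.96%) were past 25 points in that direction at E3. Of the 225 in chicken's favour, 98 (43.6%) were past it at E3 and 221 had the same sign, against 176 (3.24%) of all genes. The median gap at E3 was 23.7 points for the first group and −23.1 for the second, and it was 31.2 and −30.4 at E8. Both groups were chosen by a gap of at least 25 points at E8, so their E8 medians exceed 25 in size by construction. No widening from E3 to E8 is read from them. At E5, 100 of the 199 and 113 of the 225 were past 25 points the same way, against 153 (2.82%) and 189 (3.48%) of all genes. Across the 5434 genes the gap at E3 and that at E8 had a Pearson correlation of 0.777, given as a description, since gaps at all stages share the gene models, annotation and processing of both tables.

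**Figure D3:**
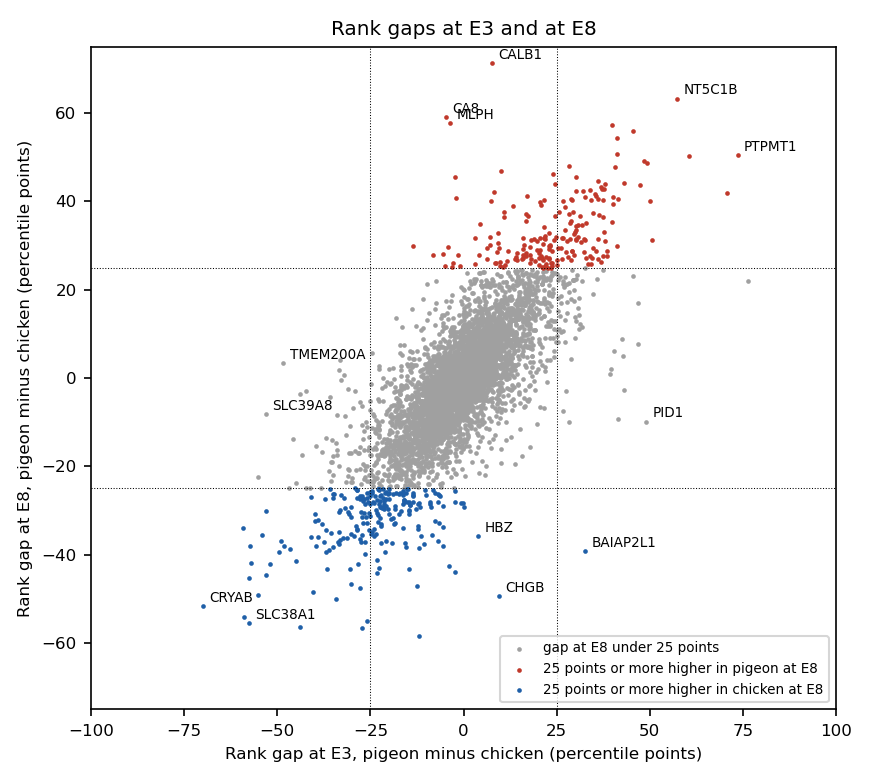
Rank gap at E3 (horizontal axis) against rank gap at E8 (vertical axis), pigeon minus chicken, for 5434 genes, with dotted lines at 25 points. Most points lie along the diagonal, and CA8, CALB1, MLPH, CHGB and BAIAP2L1 lie away from it.

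A smaller set of genes parted, or came together, between E3 and E8. The gap moved by at least 25 points toward pigeon in 46 of 5434 genes (0.847%) and toward chicken in 50 (0.92%), with a median move of 4.26 points in size over all genes. The 10 largest moves toward pigeon held CA8 (63.9 points), CALB1 (63.6), MLPH (61.3), SAMD7 of the photoreceptor list and CERKL, among others. SAMD7, a repressor of photoreceptor nuclei, was at 0.299, 3.08 and 96.6 in pigeon and 0.136, 0.407 and 7.81 in chicken, higher at E8 than before in both birds, with a gap of 40.7 points. CERKL, a retinal gene named for its likeness to ceramide kinase and known from inherited retinal degeneration, was at 1.13, 3.34 and 46.6 in pigeon and 2.94, 3.02 and 5.52 in chicken, and its gap was 29.8 points.

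In 4 of these 10 genes a gap in chicken's favour at E3 closed instead. TMEM200A was at 88.6, 38.9 and 10.4 in chicken and 19.1, 21.1 and 27.4 in pigeon, and the gap of 48.4 points at E3 was 3.31 the other way at E8. SLC39A8, a zinc and manganese transporter, was at 37.1, 28.3 and 8.67 in chicken and 5.33, 5.96 and 13.1 in pigeon, with a chicken lead of 53.00 points at E3 and 8.23 at E8. LECT1, chondromodulin, a matrix protein that blocks vessel growth, had a gap of 43.9 points at E3 and 3.54 at E8, and TMEM35 of 33.1 at E3 and −4.13 at E8, on the same scale of chicken minus pigeon.

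Toward chicken, the largest move was that of BAIAP2L1, an adaptor between membranes and actin. Its FPKM was 2.72, 2.28 and 23.1 in chicken and 38.8, 35.3 and 7.45 in pigeon, high at E8 alone in chicken and low at E8 alone in pigeon. It ranked 32.7 points higher in pigeon at E3 and 39.1 points higher in chicken at E8. The chicken row (XLOC_006031) lies on chromosome 14 from 1149446 to 1184172 and the pigeon model (Cli_R001019) on scaffold1084 from 392791 to 414122. PID1, an adaptor of insulin signalling, was at 86.5, 50.7 and 4.34 in pigeon and 3.77, 5.67 and 5.02 in chicken, and the gap was 49.04 points at E3 and −9.86 at E8. C1QTNF4, a secreted protein of the C1q family, was at 3.03, 7.82 and 41.8 in chicken and 6.03, 4.25 and 16.2 in pigeon, and SFRP2, a secreted Wnt antagonist, was at 42.7, 31.96 and 22.5 in chicken and 77.7, 59.3 and 4.55 in pigeon. HBZ, an embryonic globin, was at 2119.6, 657 and 0.615 in pigeon and 115, 234 and 11.3 in chicken, with the pigeon value at E8 resting on 1.031 steps, and haemoglobin genes are close copies whose single values are uncertain. For NDRG1, a stress response gene, PTN, the growth factor pleiotrophin, and MYL4, a pigeon lead of 39.3, 42.7 and 39.7 points at E3 had closed to 0.971, 5.02 and 2.08 points at E8.

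**Figure D4:**
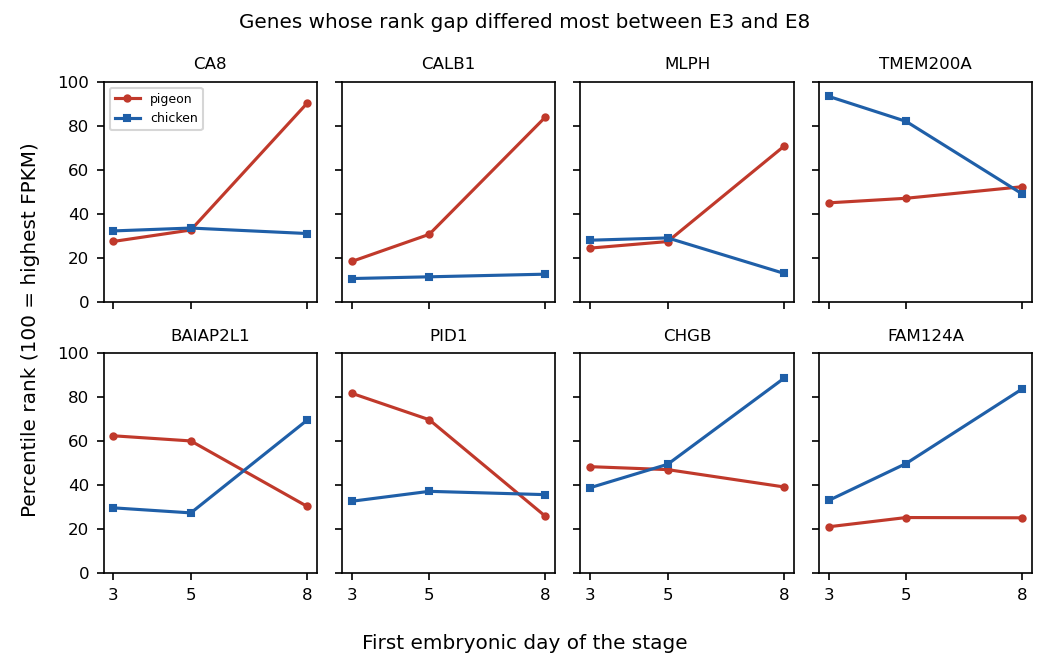
Percentile rank at E3, E5 and E8 in pigeon (circles) and chicken (squares) for the 4 genes whose gap moved farthest toward pigeon (upper row) and the 4 that moved farthest toward chicken (lower row). CA8 and CALB1 part mostly after E5 with the chicken rank nearly level, while the lines of BAIAP2L1 cross.

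Among lists of retinal cell type genes, 1 of 7 photoreceptor, 2 of 10 amacrine and horizontal cell and 2 of 9 Müller glia genes had a gap past 25 points, and none of the ganglion, bipolar, progenitor and proneural genes did. Lists of genes chosen with earlier results of these data known were described by their medians, beside a median gap of −0.546 points over all 5434 genes, of which 3.66% were past 25 points in pigeon's favour and 4.14% in chicken's. Only the genes listed once in both tables under the same name enter, so each list holds a part of its genes. Of 31 ganglion cell genes 8 entered, with a median gap of 7.87 points and none past 25. ISL1, a LIM homeodomain factor of ganglion and other neurons, was at 0.143, 2.42 and 32.7 FPKM in pigeon and 0.105, 2.12 and 9.37 in chicken, at a gap of 10.2 points. GAP43, a protein of growth cones, was at 48.3, 46.5 and 343 in pigeon and 24.6, 22.4 and 67.6 in chicken, at places 216 and 584. EBF1, a helix-loop-helix factor of neurons, had a gap of 17.7 points, the zinc finger factor KLF7 10.5 and the heavy neurofilament gene NEFH 10.4. The other 3 members had gaps below 0, the largest of them in size −8.92 points.

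Of 35 photoreceptor genes 12 are among the 6590 and 7 of them could be compared. The median gap was 2.90 points, with SAMD7 past 25. RXRG, a nuclear receptor of cones, was at 3.45, 13.8 and 226 FPKM in pigeon and 1.45, 7.14 and 70.4 in chicken, and its places of 359 and 550 gave a gap of 2.90 points. NR2E3, a nuclear receptor of photoreceptor fate, was at 0, 0.294 and 31.3 in pigeon and 0.0148, 0.306 and 5.88 in chicken, a gap of 17.6. The chicken span of NR2E3 is shared with 1 other row, named MYO9A. MPP4, a scaffold protein of photoreceptor synapses (−16.7 points), and CNGA3, a cone channel subunit (−14.9), ranked higher in chicken. Both were low at E8, MPP4 at 0.865 FPKM in pigeon (10.5 steps) and 3.94 in chicken, CNGA3 at 0.621 (9.30 steps) and 2.74. The sign of this median depends on the genes taken: it was 28.99 points over the 3 genes of at least 5 FPKM in both tables, −3.86 with genes at 0 included, and −4.54 without chicken rows that share a span, an alternative chosen after seeing the data.

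Among amacrine and horizontal cell genes, 10 of 28 were compared, with a median gap of 0.0531 points and 1 gene past 25 each way. These were CALB1 and PENK, the precursor of enkephalin peptides, which was at 2.65, 18.9 and 1.41 FPKM in pigeon and 2.42, 5.74 and 11.4 in chicken and ranked 32.8 points higher in chicken. The pigeon value of PENK at E8 rests on 5.34 steps. The AP-2 factor TFAP2D was at 0.312, 2.28 and 146 in pigeon and 0.0667, 1.90 and 32.2 in chicken, a gap of 12.2 points. SLC32A1, the vesicular carrier of inhibitory transmitters, had a gap of −14.96 points on 1.07 pigeon steps. The 3 bipolar cell genes compared were TRPM1, ISL1 and CA10, and TRPM1, a cation channel that pigment cells also express, had a gap of 10.8 points. Its FPKM was 299, 255 and 189 in pigeon and 61.6, 75.3 and 38.1 in chicken, lowest at E8 in both birds. Which cells carry it was not tested.

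The median percentile ranks of the 5 progenitor genes compared were 94.7 in pigeon and 95.2 in chicken, and those of the 4 proneural genes 86.5 and 88.1. The median gap was −1.99 points for the progenitor genes and 1.45 for the proneural genes. Of the 4 proneural genes 3 had a gap above 0, and SOX11 had one of −6.09. SOX2, a factor of neural progenitors, was at places 353 and 222, and SIX6, an eye field factor, at 112 and 318. NR2E1, a nuclear receptor of retinal progenitors, had a gap of −5.43 points. ZIC1, a zinc finger factor, stood in the middle of the ranked genes in both birds, at percentile ranks of 45.2 in pigeon and 55.1 in chicken. MYT1, a zinc finger factor of new neurons, was at 1.90, 6.98 and 60.1 in pigeon and 0.705, 3.17 and 16.6 in chicken, percentile ranks of 73.3 and 60.4 at E8, and HES6, a bHLH factor of neurogenesis, was at places 170 and 350. Of 26 Notch pathway genes 9 were compared, with a median gap of −2.03 points, none past 25, and the largest for NUMB, an inhibitor of the receptor (−14.2).

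Glial genes gave 1 gap in each direction. Of 9 Müller glia genes compared, with a median gap of 4.31 points, GLUL, glutamine synthetase, ranked 27.2 points higher in pigeon, with FPKM of 51.6, 66.6 and 37.4 in pigeon and 5.62, 6.67 and 4.23 in chicken. The chicken span of GLUL is shared with 1 other row. RLBP1, a retinaldehyde-binding protein that pigment epithelium also expresses, ranked 34.1 points higher in chicken, at 10.9, 25.5 and 11.3 FPKM in chicken and 12.9, 17.6 and 0.953 in pigeon. The pigeon value of RLBP1 at E8 rests on 5.23 steps. SLC1A3, a glial glutamate transporter, had a gap of 42.4 points at E3 and 8.92 at E8. CRYM, mu-crystallin, a thyroid hormone binding protein, had a gap of 12.2 points at E8.

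Of 10 synaptic genes compared, 8 had a gap below 0, as had 2889 of all 5434 genes, and none was past 25 points. Their median gap was −5.79 points. SYT4, a synaptotagmin of secretory vesicles, was at 0.214, 1.48 and 10.8 FPKM in chicken and 0.461, 0.877 and 7.76 in pigeon, a gap of −18.8 points. NSF, which takes SNARE complexes apart (−16.8), VAMP1, a vesicle SNARE (−15.2), and SV2B, a vesicle protein (−13.1), had the next largest. SNAP25, the plasma membrane SNARE, went the other way at 12.3 points, with 3.59, 10.99 and 65.2 in pigeon and 1.16, 3.75 and 18.3 in chicken. Axon guidance genes (14 compared, median −4.22) had SEMA4D at −29.9 and SEMA3A, a repulsive semaphorin, at 23.8 points. Of 7 genes of retinoic acid and patterning (median −5.30), CYP1B1, a cytochrome that can make retinoic acid, was past 25 points, at −36.2, and STRA6, the retinol transporter, at −19.5.

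Genes of the cell's basic machinery had small gaps. The medians were 0.0152 points for 24 large-subunit and 0.152 for 13 small-subunit ribosomal proteins, −0.615 for 18 translation factors, 0.0304 for 21 respiratory chain genes and −0.85 for 13 proteasome genes. None of these 89 genes was past 25 points, and the largest gap among them was that of PABPC1, 11.99. All these lists stood above a median percentile rank of 96 in both birds, where there is little room for a gap. Of 13 chaperones 12 had a gap below 0, against 2889 of 5434 genes in all, and CRYAB alone was past 25. Their median gap was small, −0.789 points, at median percentile ranks of 97.8 in pigeon and 98.3 in chicken. Of 5 glycolysis genes, SLC2A3, a glucose transporter, had a gap of 25.01 points and the other 4 ran from −2.09 to −0.319. S phase genes (15 compared, median −4.10) had 11 gaps below 0 and 4 above. The largest each way were GINS3 of the replicative helicase at −27.7 and CCNE1 at 17.9 points. Of 20 genes of G2 and mitosis (median 1.18), 13 had a gap above 0, as had 2540 of all 5434 genes, and none was past 25 points. The difference between these lists was not tested. TOP2A, the topoisomerase of mitotic chromosomes, was at places 96 and 122. The splicing and RNA-binding list (17 compared, median 0.501) had RBM24 past 25 points.

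**Figure D5:**
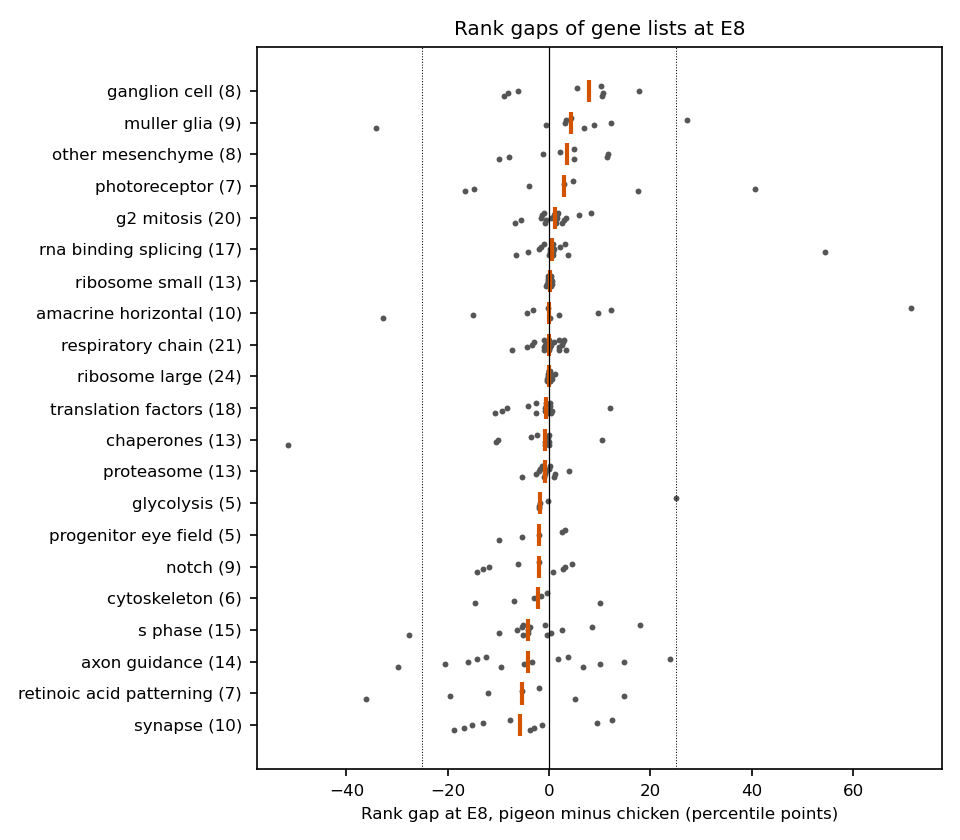
Rank gap at E8 (pigeon minus chicken, in percentile points) of each compared gene in the lists with at least 5 such genes, 1 point per gene, with the list median as a vertical bar and the number of genes in brackets. Ribosomal and respiratory chain genes sit close to 0, and CALB1 at 71.4 and CRYAB at −51.6 are the farthest points to either side.

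Most markers of neighbouring tissues were low at E8 in both birds. Of 57 such genes in 7 lists, 19 were listed at 0 in pigeon and 5 in chicken, against 534 and 417 of all 6590 genes. Under 5 FPKM were 47 of the 57 in pigeon and 44 in chicken, where the medians over the 6590 genes were 24.8 and 10.9 FPKM. Both medians lie above 5 FPKM, so less than 50% of the 6590 genes were under it in each table. A limit of 5 FPKM is not the same level in both tables. Of the 57 genes 24 could be compared, against 5434 of the 6590. TYR, the pigment enzyme tyrosinase, was at 1.02 FPKM in pigeon and 1.74 in chicken, and MLANA, another pigment gene, was listed at 0 in pigeon. Past 25 points were SLC24A5, a pigment cell exchanger, in pigeon's favour (40.99), and in chicken's favour HBZ (35.9 points), PECAM1, an endothelial adhesion protein (35.8), and TPM1, a tropomyosin (43.2). Sums of FPKM at E8 over each list are given within each table, out of its own total of 604461 in pigeon or 242501 in chicken, and are not levels of one bird against the other. In pigeon they were 297 for 9 pigment epithelium genes, mostly TRPM1 and SLC24A5, 10.8 for 6 lens, 7.93 for 9 endothelial, 55.7 for 12 mesenchyme and 134 for 6 leukocyte genes. For 5 erythroid and 10 muscle genes the pigeon sums were 1263 and 782. In chicken, in the same order, they were 52.9, 6.80, 17.97, 22.3 and 43.9, and then 2361 and 211. In both tables CA2, which glia also express, made up nearly all of the erythroid sum, MYL4 most of the muscle sum and CXCR4, which neurons also express, most of the leukocyte sum. At 0 in pigeon were the lens genes CRYAA and GJA3, the endothelial genes ESAM, LYVE1 and ROBO4, the leukocyte genes C1QC, LAPTM5 and SPI1, LRAT of the pigment epithelium, RHAG of red cells, the mesenchyme genes ALX1 and MGP, and 6 muscle genes, MYOG and TNNC1 among them. In chicken ROBO4, C1QC, RHAG, MYOG and TNNC2 were at 0. What part such cells have in the gaps of MLPH, RDH5, RLBP1 and HBZ was not tested.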

How the data were processed

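RNA-seq values of 6 groups (2 species, 3 stages, 3 libraries each, taken from the labels) came as 2 deposited tables. Per the file headers, the authors gave FPKM per gene, 1 pooled value per stage, so depth, replicate error and tests are not available and only the E8 ranks, with the earlier stages beside them, are described. The submitters' processing notes name Bowtie2, TopHat2, Cuffdiff and Cufflinks, without versions, and the genome builds are a point not given in the sources used here. Pigeon model lengths are listed as deposited, and 90.3% of those ranked are multiples of 3, as coding lengths are. Listed starts were raised by 1 to count from 1, and the listed chicken spans can be shared by several rows. Of 16652 pigeon and 24708 chicken rows, 2358 and 7092 had no name, and names were put in upper case.

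Ranks (ties share the mean) used Python 3.11.15 and pandas 2.3.3, and the script was tested on simulated data with planted gaps. Named genes were the 20 with the best joint rank, the 15 largest gaps each way and the 10 largest moves of the gap each way (at least 5 FPKM where higher), the 5 highest genes at 0 in each table, up to 4 and the highest of each of 29 lists, and 16 landmarks, of which 9 are among the genes ranked. Members, lists and limits were chosen with earlier results of these data known. A pigeon smallest step is the value divided by the lowest nonzero value among models within 3% of its length, and need not be 1 read. Alternatives were other filters, lengths, gap sizes, row choices and measures. A few genes that the naming rule takes in are not reported here.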

Additional observations from a re-analysis of the deposited data

Results flagged for a closer look

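The percentile ranks of 5 named genes moved opposite ways in the 2 birds from E3 to E8, by at least 10 points in each. Each species has 1 pooled value per stage, so none of these differences was tested. BAIAP2L1 went from 62.5 to 30.4 in pigeon and from 29.8 to 69.6 in chicken, a move of the gap of −71.9 points. MLPH went from 24.3 to 70.6 in pigeon and from 27.9 to 12.9 in chicken, a move of 61.3 points. LECT1 went from 46.6 to 76.7 in pigeon and from 90.5 to 80.2 in chicken, a move of 40.4 points. PDGFRA, a growth factor receptor of mesenchyme and glial precursors, went from 32.3 to 50.4 in pigeon and from 48.9 to 38.8 in chicken, a move of 28.1 points. SGCD went from 41.6 to 4.04 in pigeon, where it is listed at 0 at E8, and from 26.9 to 40.4 in chicken, a move of −51.1 points.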

How the results depend on the processing

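No paired analysis was possible because the tables hold no value per library, and for the same reason no replicate could be left out. The rank correlation at E8, 0.864, was 0.826 and 0.776 among genes of at least 1 and 5 FPKM in both tables, 0.854 with no minimum length, 0.869 at 1000 bases or more, 0.84 with the highest row of each name, 0.898 without genes off the chicken chromosomes (chosen after seeing the data), and, as a Pearson correlation of log2(FPKM + 1) and log2(FPKM + 5), 0.881 and 0.887. Of the highest 50, 200 and 500 genes, 43, 148 and 353 were shared. Genes past the limit in pigeon's favour, 199, numbered 344 and 361 among genes of at least 1 and 5 FPKM in both, 308 with zeros included and 308 with the highest row of each name, 83 at 1 SD of scaled log2 values, and 911 and 10 at gaps of 10 and 50 points. In chicken's favour, 225 became 339 at 5 FPKM in both, 98 at 1 SD, and 1046 and 8 at 10 and 50 points. Ranking again at 1 or 5 FPKM spreads fewer genes over the whole scale, which widens gaps by construction. Including zeros leaves all ranks as they are, and all 199 and 225 genes stayed past 25 points. The genes this adds are therefore among those left out of the main count. Of the genes left out, 217 were above 0 in pigeon and at 0 in chicken, and 116 of the 217 lie off the chicken chromosomes. The cause of the other moves was not tested. Of the 199 and 225 genes, 199 and 208 stayed past 25 points without genes off the chicken chromosomes, and 162 and 225 with the highest row of each name. None of 471 recomputed gaps of named genes turned sign, while 18 of 305 recomputed medians of gene lists did, in 10 lists. Depth is not given, so low ranks carry an error of unknown size.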

Other observations

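The share of genes past 25 points in pigeon's favour, 3.66% in all, differed between classes of pigeon model length. The median gap was 1.15 points for 468 genes with pigeon models of 300 to 499 bases, where 8.33% were past 25 points in pigeon's favour. It was −1.67 points for 1279 genes of 2000 to 3999 bases, where 2.19% were. Gaps past 25 points in chicken's favour were also more frequent in the shorter class, 5.34% against 3.21%, with 4.14% in all. By chicken chromosome, the median was 0.152 points for 2635 genes on chromosomes 1 to 5 and −1.99 for 1598 genes on chromosomes 11 to 28. In chicken's favour, 3.53% of the first group and 5.44% of the second were past 25 points. The 262 genes of chromosome Z had a median gap of 0.266 points, with 13 past 25 points in pigeon's favour and 9 in chicken's. These are descriptions, and the base composition of the genes was not analysed here. Chicken rows whose span is shared with another row (1395 genes) had 3.44% and 4.52% of genes past 25 points in the 2 directions, and the 4039 others 3.74% and 4.01%.

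Of the pigeon stages, E8 had the highest rank correlation with chicken E8 (Spearman's 0.864, against 0.852 for E5 and 0.846 for E3), and of the chicken stages, E8 had the highest with pigeon E8 (against 0.838 for E5 and 0.832 for E3). The median move of a gene's percentile rank from E3 to E8 was 4.72 points in size in pigeon and 3.04 in chicken.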
